A study of Mus musculus with 6 samples.

Results

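Within the adipocyte nuclei of mouse subcutaneous white adipose tissue, 2692 nuclei were chosen because more genes of a 5-gene set, Mageb18, Ptchd4, Pnpla3, Lhfpl2 and Tenm4, were detected in them than of 3 other sets of 5 genes; the nuclei were thus selected on the measured UMIs of these genes. The other sets were Pck1, Nrg4, Nnat, Cfd and Slc1a3 (the Pck1 set), Peg10, Ptger3, Plagl1, Btc and Svep1 (the Peg10 set), and Gabrr2, Vat1l, St6galnac5, Rgs7 and Chrdl1 (the Gabrr2 set). A gene counted as detected with at least 1 unique molecular identifier (UMI), and at least 2 genes of the Mageb18 set were required. The nuclei came from 15760 gated adipocyte nuclei, which had at least 5 of the 8 adipocyte genes Plin1, Adipoq, Plin4, Cidec, Lipe, Acvr1c, Adrb3 and Pde3b, 500 or more genes detected and no more than 5% of UMIs from mitochondrial genes. The series held 65162 barcodes in all, of which 61496 passed the last 2 limits.

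The tissue came from 2 groups of 3 mice, with 1 library of nuclei each. Flox control mice were GPSM1f/f, with loxP sites around Gpsm1, and Treg knockout mice were GPSM1ΔTreg, a name that places the loss of the gene in regulatory T cells (Treg cells). The sample titles FLOX and CKO were read as these genotypes, which the protocol names with 3 mice each. Both groups were on a high-fat diet started at 7 weeks of age, for 12 weeks by the sample labels, where the protocol gives 5 to 12 weeks. The Cre driver, the deleted exons and the sex of the mice were not stated in the sources. Nuclei were sorted on DAPI and made into droplet-based 3′ libraries of 38857282 to 55342903 UMIs. Since the deletion concerns Treg cells, the Gpsm1 level of adipocyte nuclei does not check the labels: in the Mageb18-set nuclei controls 1, 2 and 3 had 9.75, 7.73 and 11.8 counts per 1e+06 UMIs (CPM) of it and knockouts 1, 2 and 3 had 13.5, 15.5 and 10.2.

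White adipocytes store triglyceride in a large lipid droplet and release fatty acids from it under adrenergic control. They also make fatty acids from glucose and acetate, through a chain of enzymes under the transcription factors SREBP1c and ChREBP, and secrete adipokines such as adiponectin, leptin and adipsin. Pnpla3 encodes a lipid droplet protein of the patatin-like phospholipase family and is a known target of both factors. Mageb18 belongs to the MAGE family, several members of which bind ubiquitin ligases. Ptchd4 encodes a protein related to the hedgehog receptor Patched, Tenm4 a teneurin, which is a transmembrane adhesion protein, and Lhfpl2 a tetraspan membrane protein.

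The 5 defining genes lie on 5 different chromosomes (mm10, GENCODE vM21). Mageb18 (ENSMUSG00000067649) spans chromosome X from 92118879 to 92599572 on the minus strand. Ptchd4 lies on chromosome 17 from 42315947 to 42505077, Pnpla3 on chromosome 15 from 84167837 to 84187236, Lhfpl2 on chromosome 13 from 94057796 to 94195409 and Tenm4 on chromosome 7 from 96171246 to 96911093, all on the plus strand. The 250 bases before the RefSeq start (GRCm38.p6) are shown for the gene that separates these nuclei most, Mageb18 (chrX:92599573-92599822, minus strand), and for the lipid gene among the 5, Pnpla3 (chr15:84167566-84167815, plus strand). Capitals mark matches on either strand to 5 motifs, which do not overlap each other here: the CCAAT box (that is, these letters), a TATA box form spelled TATAAA, a common form of the GC box spelled GGGCGG, the core site of nuclear receptors spelled AGGTCA, and the E-box form spelled CACGTG. A match on the opposite strand appears as its reverse complement.
Mageb18: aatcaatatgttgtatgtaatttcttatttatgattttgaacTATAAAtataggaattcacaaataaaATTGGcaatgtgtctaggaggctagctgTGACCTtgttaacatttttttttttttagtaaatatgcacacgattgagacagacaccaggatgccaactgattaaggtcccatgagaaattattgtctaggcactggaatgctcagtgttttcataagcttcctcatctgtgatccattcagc
Pnpla3: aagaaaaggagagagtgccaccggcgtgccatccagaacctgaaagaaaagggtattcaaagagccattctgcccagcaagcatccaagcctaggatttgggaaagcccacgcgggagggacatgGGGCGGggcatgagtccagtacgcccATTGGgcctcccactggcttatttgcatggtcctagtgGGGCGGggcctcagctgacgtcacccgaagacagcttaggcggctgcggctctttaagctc
The Mageb18 window held the TATA box form, a CCAAT box and a nuclear receptor core site and had 34% G and C, against a median of 52.4% over all 32851 windows of this length in the RefSeq table. The Pnpla3 window held a CCAAT box and GC boxes and had 58.4% G and C. Of all windows, 33.8% held a CCAAT box, 32.7% a GC box, 14.0% the nuclear receptor core site, 12.4% the TATA box form and 6.02% the E-box, which neither printed window held. Such matches describe the letters only.

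Mageb18 was the gene that set these nuclei apart most. UMIs were summed per library over each class of nuclei, so that a library is 1 replicate, and CPM relates a gene's sum to all UMIs of that class. Mageb18 stood at 2507, 2898 and 2392 CPM in the Mageb18-set nuclei of controls 1, 2 and 3 and at 3354, 4709 and 3742 CPM in those of knockouts 1, 2 and 3. In every knockout library the level was above every control library. The Pck1-set nuclei held 146 to 464 CPM of it over the 6 libraries, the Peg10-set nuclei 309 to 1136 and the Gabrr2-set nuclei 61.3 to 187. These levels chose the nuclei and are a description, with no test.

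Ptchd4 followed Mageb18, at 471 to 673 CPM in the Mageb18-set nuclei against 55.1 to 96.5 in the Pck1-set nuclei. Pnpla3 was at 649 to 870 CPM against 330 to 602, Lhfpl2 at 623 to 1010 against 266 to 543, and Tenm4 at 3173 to 4416 against 1579 to 2545. For each of the 5 genes the lowest library of the Mageb18-set nuclei was above the highest of the other 3 sets, as the plot of the defining genes shows. After each nucleus was thinned to 3000 UMIs, Mageb18 was detected in 75.3 to 88.8% of the Mageb18-set nuclei and in 5.50 to 11.5% of the Pck1-set nuclei of a library. The median Mageb18-set nucleus then had 2 to 7 Mageb18 UMIs, and the upper quartile was 8 to 17.

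**Figure D1:**
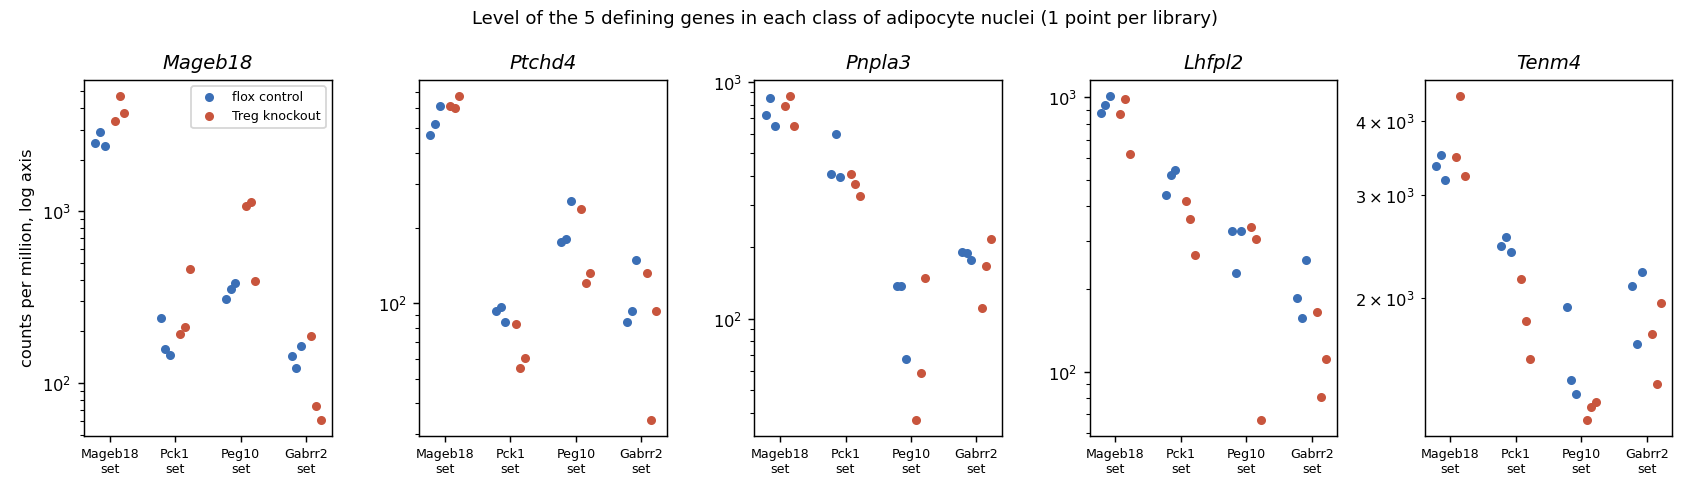
Level of the 5 defining genes in CPM (log axes), in the nuclei of each leading set, with 1 point per library (blue, flox control; red, Treg knockout). Mageb18 in Mageb18-set nuclei runs from 2392 to 4709 CPM, and every one of these points lies above all points of the other sets.

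Few nuclei were led by the set without any sign of the others. All 5 genes were detected in 2013 nuclei (74.8%) and 4 of them in 473 (17.6%). The lead was a single gene in 2074 nuclei (77.0%), and 2661 nuclei (98.8%) also had at least 1 gene of the Pck1 set. Just outside the rule lay 2764 gated nuclei (17.5%) with at least 2 genes of the Mageb18 set that were tied for the lead. Summed over the nuclei of all libraries, Mageb18 stood at 2005 CPM in the tied nuclei. It stood at 2973 CPM with a lead of 1 gene and at 2839 CPM with a lead of 2 or more. Such sums do not show how single nuclei are spread at the border. Pck1 was at 469, 335 and 178 CPM in the same 3 groups.

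The 8 adipocyte genes of the gate were used to choose the nuclei, so their levels are a description and do not check the adipocyte label. Of them, Plin1, which coats the lipid droplet, was at 871 to 1010 CPM over the 6 libraries, the droplet protein gene Cidec at 1825 to 2941 CPM and Adipoq, which encodes adiponectin, at 157 to 235 CPM. Plin1 was detected in 92.7 to 100% of the nuclei of a library. Markers of other cell types were present at low levels, and no marker of the 6 lists was at 0. The 10 macrophage markers summed to 255 to 438 CPM over flox controls and 291 to 542 over knockouts, the 10 progenitor markers to 267 to 454 and 157 to 528, and the 6 mural markers to 102 to 110 and 42.1 to 136. The progenitor markers other than Dclk1, a gene higher in these nuclei than in other gated nuclei, summed to 186 to 370 and 85.2 to 337 CPM. The 8 endothelial markers summed to 47.5 to 191 CPM and 28.0 to 48.9, all 8 of them lower in the knockouts on average. The 8 T cell markers summed to 5.43 to 16.5 and 11.6 to 61.6 CPM, 7 of 8 higher in the knockouts. The B cell markers other than Ebf1, which adipocytes express, summed to 87.1 to 129 CPM in control sums and 142 to 205 CPM in knockout sums, all 7 higher. With Ebf1 the sum was 4796 to 5556 and 4750 to 5993 CPM.

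Flox control 3 stood apart. Its Mageb18-set nuclei had a median of 4290 UMIs, against 14645 and 13576 UMIs in the other controls and 10885 to 16847 in the 3 knockouts. Of its 714 nuclei, 383 (53.6%) had under 5000 UMIs, and these gave 13.9% of its UMIs in the class. In them the macrophage markers summed to 1428 CPM, against 278 CPM in its deeper nuclei, and Mageb18 was at 1423 against 2548 CPM. Between 24 and 44 barcodes were shared by a pair of libraries, and 2 barcodes of Mageb18-set nuclei over all 15 pairs.

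Mageb18-set nuclei made up a smaller part of the adipocyte nuclei in the knockouts. They were 573 of 2581, 815 of 3136 and 714 of 3149 gated nuclei in flox controls 1, 2 and 3, or 22.2, 26.0 and 22.7%. In knockouts 1, 2 and 3 they were 151 of 1457, 255 of 2906 and 184 of 2531, or 10.4, 8.77 and 7.27%. All 3 knockout libraries lay below all 3 controls, and the highest knockout share (95% Clopper-Pearson interval 8.85 to 12.0%) was below the lowest control share (20.6 to 23.9%; intervals cover counting error only). The means were 23.6 ± 2.06% and 8.80 ± 1.55% (SD, n = 3), a difference of -14.8 percentage points (exact two-sided permutation test, p = 0.1, which is the lower limit for 3 against 3 libraries). Of all kept nuclei the shares were 6.95 ± 1.28% and 1.90 ± 0.540%.

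The direction was the same in 9 other ways of choosing the nuclei and with all kept nuclei as the denominator, and in all 10 every knockout library was below every control. Thinned to 3000 UMIs, the shares were 28.2 ± 3.67% and 12.9 ± 2.86%, and in nuclei of 5000 to 20000 UMIs 21.5 ± 5.00% and 10.3 ± 2.63%. Because the rule sets the Mageb18 set against the Pck1 set, and Cfd of that set was at 105 CPM in control and 507 CPM in knockout gated nuclei, the share was also taken with the Pck1 set less Cfd. It was then 29.6 ± 1.72% and 15.3 ± 3.49%. That choice kept Pck1, Nnat, Nrg4 and Slc1a3, which also were higher in knockout gated nuclei, with no overlap between the groups. Their means were 537, 1671, 699 and 711 CPM in controls and 1020, 2523, 1040 and 1319 CPM in knockouts. With no comparison with other sets, and at least 4 genes of the Mageb18 set detected after thinning, the share was 30.1 ± 3.29% and 18.0 ± 4.62%. The ratio of control to knockout thus went from 2.68 to 1.67. Without flox control 3 it was 24.1% in controls against 8.80% (exact permutation p = 0.2, the smallest for 2 against 3).

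**Figure D2:**
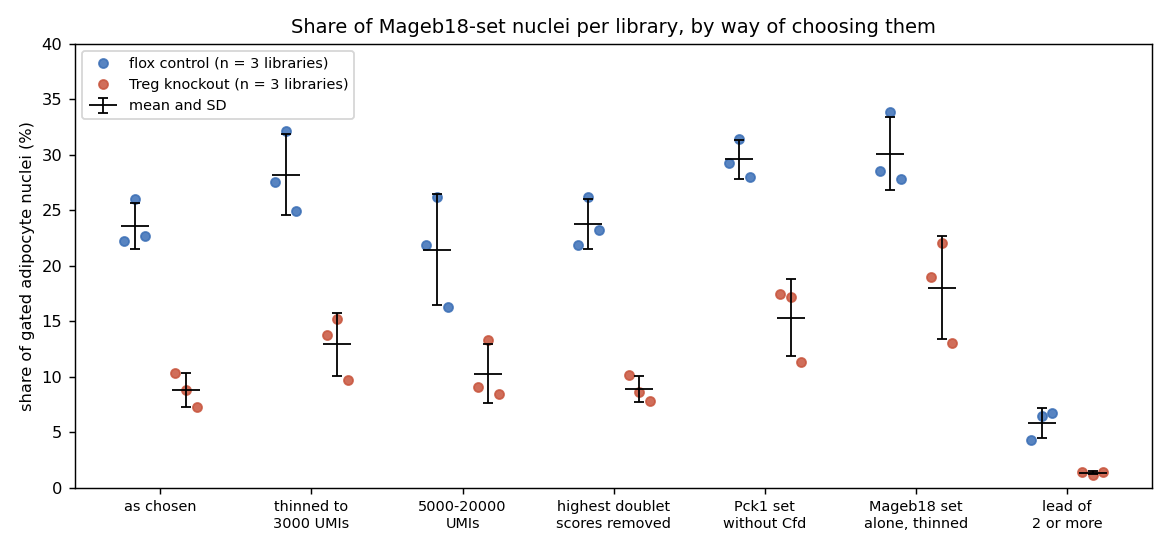
Mageb18-set nuclei as a share of gated adipocyte nuclei (%), for the rule as given and 6 other ways of choosing them; points are libraries (blue, flox control; red, Treg knockout) and bars the mean and SD of 3. In each of them all knockout points lie below all control points, with 7.27 to 10.4% against 22.2 to 26.0% for the rule as given.

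Of the other gated nuclei, those led by the Pck1 set were 30.4 ± 7.40% of all gated nuclei in flox controls and 63.7 ± 6.18% with the knockout. Peg10-set nuclei were 3.96 ± 1.49% and 1.75 ± 0.785%, Gabrr2-set nuclei 8.11 ± 2.93% and 3.78 ± 1.13%, and nuclei with no leading set 33.9 ± 3.18% and 21.9 ± 3.51%. These shares add up to the whole and so do not vary independently.

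Over all gated nuclei, the levels of the 5 genes are given for comparison with the share. None of the 5 passed edgeR's quasi-likelihood test with Benjamini-Hochberg adjustment. Mageb18 was at 1296, 1463 and 1048 CPM in gated nuclei of controls 1, 2 and 3 and at 1318, 1627 and 1164 CPM in those of knockouts 1, 2 and 3, and the groups overlapped (log2 fold change 0.05, SE 0.172, adjusted p = 0.892). Ptchd4 was at -0.38 (adjusted p = 0.115), Lhfpl2 at -0.50 (0.211), Tenm4 at -0.24 (0.336) and Pnpla3 at -0.20 (0.543). Of the Pck1 set, Cfd, which encodes adipsin, was at 2.21 (0.0625) and Pck1, which encodes the enzyme of glyceroneogenesis, at 0.87 (0.0544), neither of which passed. Slc1a3 at 0.84 (0.122), Nnat at 0.54 (0.117) and Nrg4 at 0.52 (0.128) did not pass either. In a sum over nuclei, fewer nuclei with a gene and less RNA of it per nucleus cannot be told apart.

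Beyond the defining genes, Slc5a7, Grid1 and Sez6l ranked highest in Mageb18-set nuclei among genes that the rule did not use, and Dok6, Eva1c and Ints6l lowest. Genes were ranked by the least extreme of their 6 within-library ratios, not by the median. Each library's Mageb18-set nuclei were set against its other gated nuclei by the log2 ratio of CPM with 5 CPM added. The grouping used the same nuclei, so these ratios carry no test and nothing is read from their counts. Of 6695 genes with at least 20 CPM on either side, 1173 (17.5%) were higher and 1998 (29.8%) lower in all 6 libraries, while 9 (0.134%) were at least 2-fold higher and 10 (0.149%) at least 2-fold lower in all 6. Of these, 8 and 10 also were in nuclei of 5000 to 20000 UMIs.

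Slc5a7, which encodes the high-affinity choline transporter, came next after Mageb18 by that ranking, at 235 to 444 CPM against 70.7 to 122 in other gated nuclei (median log2 ratio 1.66, from 1.47 to 2.13 over the libraries). The glutamate receptor delta gene Grid1 was at 69.1 to 130 against 17.6 to 37.6 CPM (median 1.68). For both genes the ranges did not overlap, nor did those of the histone deacetylase gene Hdac9, at 374 to 839 CPM against 124 to 342 (median 1.30). Fmr1, which encodes the RNA-binding protein lost in fragile X syndrome, was at 541 to 1363 CPM against 253 to 604 (median 1.08), ranges that overlapped although each library's own ratio was above 0. Sez6l (1.33), the kinase gene and progenitor marker Dclk1 (1.44), the nuclear pore gene Nup210 (1.31), Specc1 (1.57), the cation channel gene Trpc4 (1.31) and Adam23 (1.29) were among the 15 highest as well. So were the collagen gene Col16a1 (1.20), the oxytocin receptor gene Oxtr (1.06) and the splicing regulator gene Rbfox1 (1.17). Against Peg10-set nuclei alone the median log2 ratio was only 0.30 for Adam23, 0.53 for Trpc4, 0.71 for Col16a1 and 0.83 for Specc1. It was larger than against other gated nuclei for Grid1 (3.04), Fmr1 (1.64) and Rbfox1 (1.42).

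At the other end stood Vat1l and Cfd, both genes of the rule. Cfd was at 13.1 to 82.2 CPM against 127 to 883 in other gated nuclei. Of genes that the rule did not use, Dok6, a docking protein of receptor tyrosine kinases, was at 68.4 to 108 CPM against 232 to 367 (median log2 ratio -1.74), with no overlap. Ints6l (-1.90), Eva1c (-1.76), the glutathione transferase gene Gstt1 (-1.74), Fbln5, which encodes the elastic fibre protein fibulin 5 (-1.69), the matrix proteoglycan gene Podn (-1.60) and Slc2a3, which encodes the glucose transporter GLUT3 (-1.33), were the other 6 of the 10 lowest beside the sialyltransferase gene St6galnac5, a gene of the rule. Against Peg10-set nuclei alone Slc2a3 was not lower (median log2 ratio 0.09). Ints6l (-0.31), Podn (-0.41), Cfd (-0.55), Gstt1 (-0.73), Dok6 (-0.79) and Eva1c (-1.07) were less far below, and Fbln5 (-2.05) further. The median gene span was 158 kb among the 9 genes at least 2-fold higher, 76.1 kb among the 10 at least 2-fold lower and 42.6 kb among all compared; the median depth of Mageb18-set nuclei was above that of other gated nuclei in 5 of 6 libraries (10885 to 16847 against 5197 to 9219.5 UMIs) and below it in flox control 3 (4290 against 5670.0). The part of gene span and depth in these ratios was not tested.

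Of 17 fatty acid synthesis genes compared, 9 were higher and 1 lower in all 6 libraries, where 17.5% of all genes compared were higher and 29.8% lower; the median log2 ratio was 0.16 for the list and -0.05 over all genes. These counts too describe the nuclei and carry no test. Fasn, the fatty acid synthase, was at 32.7 to 96.2 CPM against 13.9 to 31.5 (median 0.99). Insig1, which holds back SREBP processing and is itself an SREBP target, was at 148 to 362 against 63.9 to 164 CPM (median 0.99). Acss2, which makes acetyl-CoA from acetate, was at 93.5 to 287 against 57.3 to 137 CPM (median 0.78), and Me1, the NADPH-producing malic enzyme, at 263 to 531 against 175 to 265 (median 0.59).

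Scd1, the stearoyl-CoA desaturase, was the gene of that list that was lower, at 153 to 433 CPM against 317 to 615 (median -0.55), while its paralogue Scd2 was higher (0.85). The transcription factor genes Srebf1 (-0.04) and Mlxipl (0.10) and the carboxylase gene Acaca (0.04) lay near 0, with libraries on both sides. The list genes named here and below were picked after their values were seen. Of 10 triglyceride synthesis genes compared besides Pnpla3, 5 were higher and 2 lower in all 6 libraries: Agpat2 (0.54), Dgat1 (0.47), Lpin2 (0.35), Lpin1 (0.32) and Dgat2 (0.26) were higher and Gpat4 (-0.67) and Agpat3 (-0.15) lower. Of 7 cholesterol synthesis genes compared 3 were higher and 0 lower.

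Of 19 adipogenic transcription factors compared, 12 were lower and 1 higher in all 6 libraries (median -0.26), beside 29.8% and 17.5% of all genes, again with no test. Ebf2, a factor of brown and beige adipocyte fate, was at 45.5 to 128 CPM against 141 to 296 (median -1.67). Ppargc1a, the coactivator of mitochondrial biogenesis, was at 19.1 to 35.0 against 39.4 to 78.5 CPM (median -1.14). Of 7 genes of the thermogenic list compared, 3 were higher and 3 lower in all 6 libraries (median -0.04). Pparg, the master regulator of adipocytes, was at 1315 to 1739 against 1468 to 2308 CPM (-0.28). Of 12 nuclear-encoded oxidative phosphorylation genes compared 0 were higher and 5 lower, the latter near the 29.8% of all genes. Among the adipokines the leptin gene Lep was higher, at 522 to 755 CPM against 399 to 517 (median 0.42), and Retn, which encodes resistin, was lower (-0.41). Of 24 matrix genes 9 were higher, among them the basement membrane collagens Col4a1 (0.40) and Col4a2 (0.45), and 6 lower, among them Col3a1 (-0.72). Col1a1, Col3a1 and Lama2 also are progenitor markers, whose list ran from 231 to 479 CPM in other gated nuclei.

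**Figure D3:**
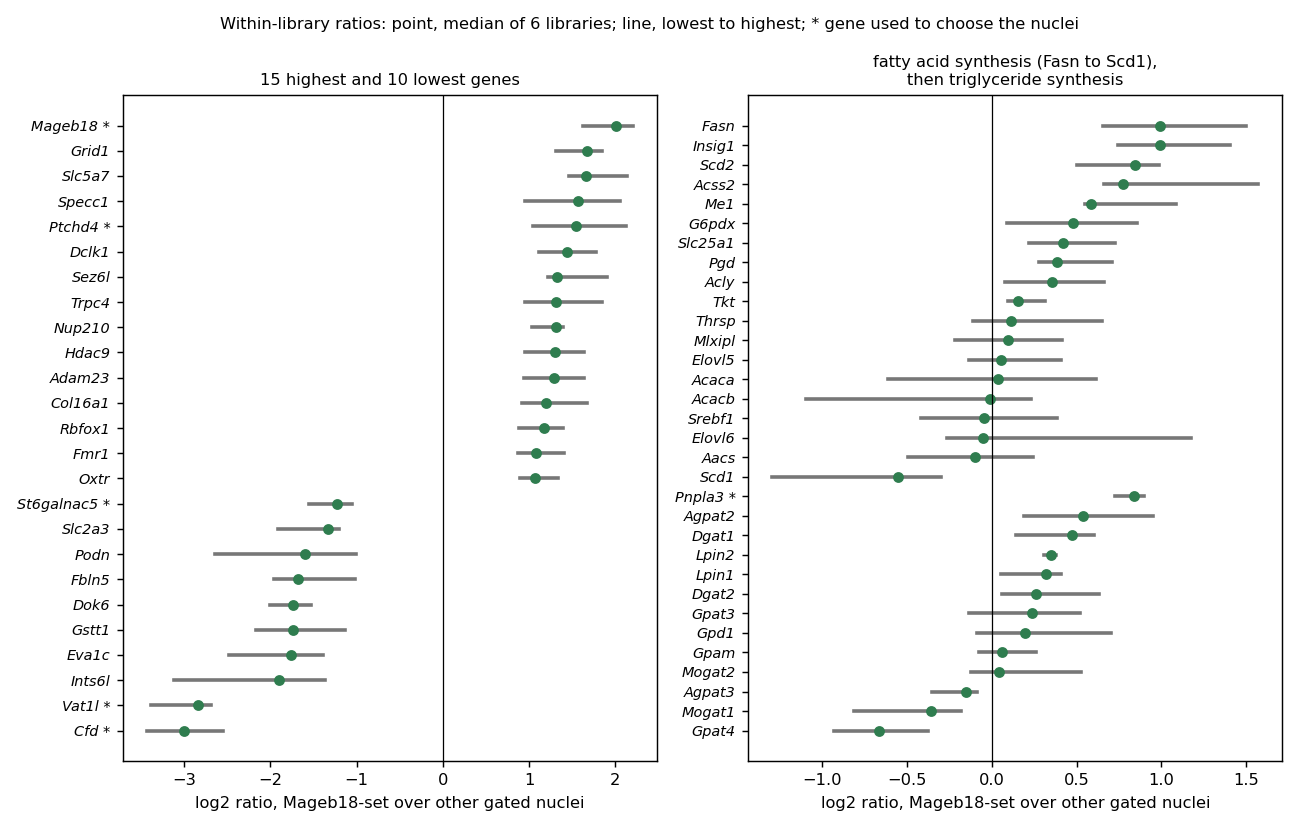
Log2 ratio of CPM (5 added) between Mageb18-set and other gated nuclei of the same library; points are the median of 6 libraries and lines run from the lowest to the highest. Left, the 15 highest and 10 lowest genes; right, fatty acid and then triglyceride synthesis genes, with Fasn at a median of 0.99 and Scd1 at -0.55; asterisks mark genes used to choose the nuclei.

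Within the Mageb18-set nuclei, no gene passed the test between knockout and control. The comparison asks whether adipocytes of this kind differ when Gpsm1 is lost from Treg cells. Of 13121 genes tested with edgeR's quasi-likelihood test, 0 rose and 0 fell (0% called in either direction; lowest adjusted p = 0.118), where 566 were higher and 532 lower at an unadjusted p under 0.05. DESeq2 called 21 higher and 39 lower (0.16% and 0.297%, or 0.457% in all). The 3 libraries of each group did not overlap for 1927 genes (14.7%), of which 1089 (8.3% of those tested) were higher and 838 (6.39%) lower in the knockouts. The summed UMIs per library were 6783171 to 11902800 in the controls and 2352224 to 3090325 in the knockouts.

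The genes of lowest p are given as values, since none passed. Among the higher ones, Ncam2, a neural cell adhesion molecule, was at 7.64, 6.64 and 8.26 CPM in controls 1, 2 and 3 and at 20.7, 18.1 and 27.2 CPM in knockouts 1, 2 and 3 (log2 fold change 1.54, SE 0.202, adjusted p = 0.251). Timp4, an inhibitor of matrix metalloproteinases, was at 14.2, 11.9 and 16.2 against 28.0, 29.4 and 47.6 CPM (1.30, SE 0.230, adjusted p = 0.327). Retn was at 73.4, 85.6 and 87.7 against 120.5, 143 and 113 CPM (0.60, SE 0.112, adjusted p = 0.346). In all 3 genes every knockout library was above every control, since no overlap was a condition for naming them. The histone gene H2afj (0.91), Lrp3 (0.80), the DNA polymerase subunit gene Pold4 (0.79), the noncoding Snhg20 (0.57) and the splicing factor gene Srsf7 (0.56) were the other higher ones.

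Gnal, which encodes the stimulatory G protein alpha subunit of olfactory neurons, was at 50.6, 58.0 and 72.2 CPM in controls 1, 2 and 3 and at 19.3, 14.6 and 22.1 in knockouts 1, 2 and 3 (log2 fold change -1.71, SE 0.187, adjusted p = 0.118). Heg1, a membrane receptor known from the heart and vessels, was at 653, 541 and 605 against 345, 349 and 418 CPM (-0.71, SE 0.121, adjusted p = 0.306). Rarb, a retinoic acid receptor, was at 27.7, 28.8 and 28.7 against 17.5, 12.9 and 12.3 CPM (-1.01, SE 0.157, adjusted p = 0.260). In these genes every knockout library was below every control, since no overlap was a condition for naming them.

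Igfbp7, an insulin-like growth factor binding protein that endothelial cells also make, was at 60.4, 50.0 and 51.6 CPM against 18.6, 29.4 and 28.5 (-1.10, SE 0.179, adjusted p = 0.260), and the endothelial markers summed to 47.5 to 191 and 28.0 to 48.9 CPM in the same sums; their part in this value was not tested. Ppfibp2 (-0.65), Arhgef2 (-0.65), AI314278 (-0.59) and Setbp1 (-0.55) were the other lower ones. Of these 16 genes, DESeq2 called 15, all but Pold4. Over 13116 genes with a known span, fold change and gene span were correlated (Spearman -0.302, with no p since genes share their libraries): genes at an unadjusted p under 0.05 had a median span of 12.9 kb where higher and 78.1 kb where lower. With each library's trend over gene span removed, edgeR again called 0 genes (908 at an unadjusted p under 0.05).

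**Figure D4:**
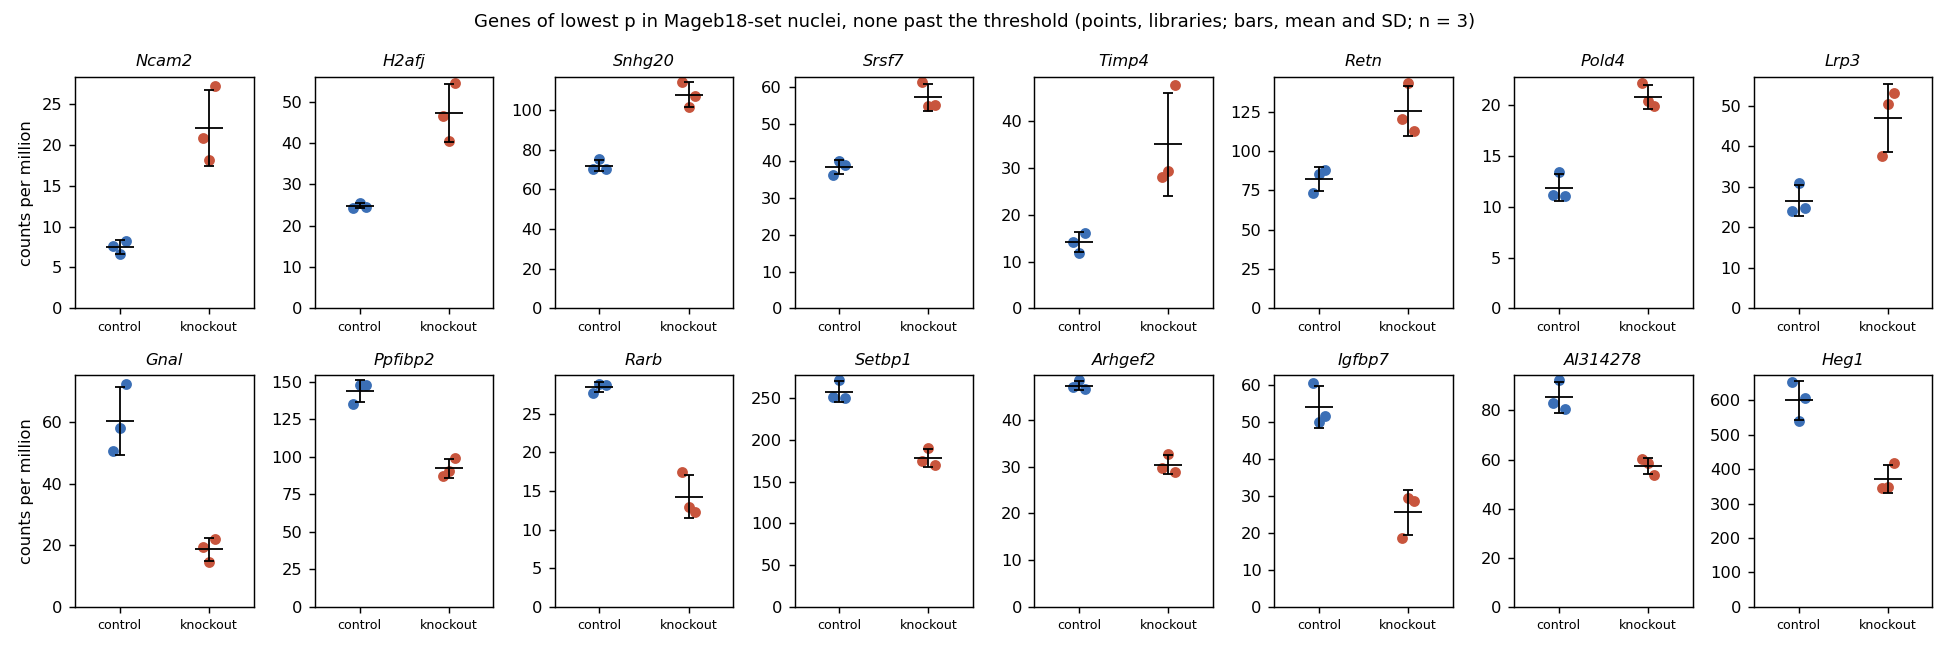
CPM in Mageb18-set nuclei for the 8 higher and 8 lower genes of lowest p, each panel with its own axis from 0; points are libraries, bars the mean and SD of 3. The groups do not overlap in any panel, a condition for being shown, and no gene passed edgeR's test (adjusted p from 0.118 to 0.381).

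The pathway lists held 0 genes that rose and 0 that fell in each of 19 lists. Of 19 fatty acid synthesis genes, 6 were higher and 13 lower, with a median log2 fold change of -0.14 against 0.01 over all genes tested. Acaca had 461 ± 115 CPM in flox controls against 336 ± 21.9 CPM (SD, n = 3; log2 fold change -0.47, adjusted p = 0.547), and Fasn was at -0.24 (0.897). Of 13 triglyceride synthesis genes besides Pnpla3, 10 were higher and 3 lower (median 0.09), of 20 fatty acid oxidation genes 10 and 10 (-0.03) and of 25 oxidative phosphorylation genes 18 and 7 (0.08). Of 18 lipolysis genes besides those of the rule, 13 were higher and 5 lower (0.09). Of 11 adipokines tested 8 were higher, with Lep at 610.4 CPM against 687 CPM (0.16, adjusted p = 0.758). Of 24 matrix genes 8 were higher and 16 lower (-0.07), with Col4a5 at 39.3 and 14.5 CPM (-1.46, adjusted p = 0.388). Of 12 lipid droplet genes besides those of the rule, 11 were higher and 1 lower (0.17). Of 8 thermogenic genes 1 was higher and 7 lower (-0.32), and of 17 cholesterol synthesis genes 3 and 14 (-0.13). Over all 13121 genes tested, 6733 were higher and 6388 lower. None of these counts stands for a change.

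Over all gated nuclei, which include the Mageb18-set nuclei and share their libraries, 11 genes rose and 16 fell of 16849 tested (0.0653% and 0.095%). Values in Mageb18-set nuclei for some of them, picked after they were seen, are set beside them here. Fmn1, an actin-nucleating formin, was at -1.10 (SE 0.103) over all gated nuclei, at -1.30 (SE 0.188) in Pck1-set nuclei and at -0.39 (SE 0.098) in Mageb18-set nuclei, where the 3 controls had 77.2, 80.7 and 75.3 CPM and the 3 knockouts 56.8, 65.7 and 57.0 CPM. Dmd, which encodes dystrophin, was at -0.63 over all gated nuclei, -0.67 in Pck1-set nuclei and -0.24 in Mageb18-set nuclei. Heg1 and Setbp1 were at -0.76 and -0.62 over all gated nuclei and at -0.71 and -0.55 in Mageb18-set nuclei.

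Whether the knockout effect itself differed between classes was tested with an interaction term, in a fit over both classes with each library as a block. Against Pck1-set nuclei, 76 of 14781 genes differed (0.514%; edgeR, adjusted p under 0.05), 52 with a more positive effect in Mageb18-set nuclei (0.352%) and 24 with a more negative one (0.162%). Among the 24 was 1 gene of the rule, Nrg4 (-0.50). Its UMIs helped to choose both classes, so its call is not a test. Of the 73 with a fold change in both classes, Mageb18-set nuclei had the smaller one in 59. No such share was taken over all genes, so nothing is read from this count. By the median log2 ratio over all libraries, knockouts included, most of the 52 stood higher in Mageb18-set than in Pck1-set nuclei. Cyp27a1, Ccdc85a and Mgat4e were exceptions. Most of the 24 stood lower by it, with Tapt1, Dhx40 and Draxin as exceptions. A difference in knockout effect itself moves this median. In the control libraries alone other genes also were exceptions, among them Sfrp5, Col6a1 and Fabp5, lower in each control, and Cnr1, higher in each. The median log2 ratio of CPM between the classes was 1.46 for Scn8a, 2.09 for Ptprk, -0.63 for Lncbate1 and -0.74 for Prdm16. The part of these levels in the differences was not tested.

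The sodium channel gene Scn8a had the lowest p. It was at 104, 89.6 and 85.8 CPM in Mageb18-set nuclei of controls 1, 2 and 3 and at 72.4, 67.6 and 77.4 CPM in those of knockouts 1, 2 and 3. In Pck1-set nuclei it was at 61.8, 52.7 and 39.9 against 14.4, 14.3 and 16.2 CPM. The fold changes were -0.38 and -1.80, a difference of 1.41 (SE 0.137, adjusted p = 0.000683).

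Ptprk, a receptor tyrosine phosphatase, was at 527, 509 and 518 CPM in Mageb18-set control nuclei and at 491, 504 and 521 in knockout nuclei, which overlapped, while Pck1-set nuclei had 162, 151 and 143 against 82.4, 73.4 and 97.5 CPM (difference 0.82, adjusted p = 0.00599). Unc79, a subunit of the sodium leak channel complex, and Dock8, a guanine nucleotide exchange factor, differed in the same way, by 1.23 and 0.71. Sfrp5, a secreted inhibitor of Wnt signalling, was at 43.4, 31.2 and 30.4 against 52.0, 50.2 and 53.1 CPM in Mageb18-set nuclei and at 52.8, 46.1 and 39.5 against 30.6, 31.4 and 34.0 CPM in Pck1-set nuclei. The fold changes of Sfrp5 thus had opposite signs, 0.55 and -0.55 (difference 1.11, SE 0.134, adjusted p = 0.00527).

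Of 24 matrix genes tested for this difference 4 had a more positive effect in Mageb18-set nuclei and 0 a more negative one. Over all genes tested the shares were 0.352% and 0.162%. Most of the 19 pathway lists held no gene that differed, and no list was tested as a set. The 4 matrix genes were the collagen genes Col6a1 (1.27), Col5a1 (0.79) and Col6a2 (1.11) and the basement membrane gene Nid2 (1.01). Of 19 fatty acid synthesis genes 2 had a more negative effect, Srebf1 (-0.58), which encodes SREBP1, and Aacs (-0.75), an acetoacetyl-CoA synthetase. Srebf1 was at -0.12 in Mageb18-set nuclei and at 0.45 in Pck1-set nuclei. Ppara, the nuclear receptor of fatty acid oxidation, was at 56.8, 52.7 and 67.5 CPM against 83.0, 58.2 and 59.1 in Mageb18-set nuclei, where the groups overlapped, and at 88.3, 68.4 and 114 against 208, 153 and 170 CPM in Pck1-set nuclei (difference -0.82, adjusted p = 0.00742). Lncbate1, a noncoding RNA of brown adipocytes, differed by -1.03, and Prdm16, a factor of thermogenic adipocytes, by -0.65.

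The 76 genes rested on particular libraries. They became 5 without flox control 1, 2 without flox control 2, 38 without knockout 3 and 175 without knockout 1, and 27 (13 and 14) in nuclei of 5000 to 20000 UMIs. Of the 8 named genes, Scn8a passed in every alternative run. Without flox control 2 the other 7 did not pass (adjusted p from 0.0555 to 0.0614), nor, without flox control 1, did Ptprk, Dock8, Col6a1, Ppara and Lncbate1 (0.0560 to 0.0821). Over all alternatives run, Dock8 lost its call in 4, Ptprk and Ppara in 3 each and Unc79 in 2. The highest adjusted p of the interaction test was 0.439 for Dock8, 0.272 for Unc79, 0.0881 for Ppara and 0.0876 for Ptprk. The Pck1-set nuclei held a mean of 2.37 to 2.67 of the 5 Mageb18-set genes per nucleus in the controls and 2.13 to 2.46 in the knockouts, ranges that overlap; the part of this in the differences was not tested.

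Against Peg10-set nuclei, a class of 451 nuclei in all, 2 of 11987 genes differed (0.0167%; 1 in each direction, 0.00834%). The potassium channel gene Kcnc2 was at 200.4, 530.0 and 316 CPM in Mageb18-set nuclei of controls 1, 2 and 3 and at 184, 134 and 127 in those of knockouts 1, 2 and 3. In Peg10-set nuclei it was at 82.5, 143 and 117 against 5.99, 12.4 and 4.62 CPM, so the fold changes were -1.25 and -3.99 (difference 2.93, SE 0.383, adjusted p = 0.00522). Rgs6, a regulator of G protein signalling, was at 21.4, 25.7 and 34.6 against 26.6, 21.7 and 31.5 CPM in Mageb18-set nuclei and at 16.7, 13.6 and 11.7 against 53.9, 65.0 and 71.6 in Peg10-set nuclei (difference -2.03, SE 0.316, adjusted p = 0.0282). The size of both differences depended on the choice of nuclei. With nuclei thinned to 3000 UMIs, Rgs6 differed by -0.73 (adjusted p = 0.903) and Kcnc2 by 1.93 (0.178), and in nuclei of 5000 to 20000 UMIs Kcnc2 differed by 1.70 (0.446). Over the alternatives run, Rgs6 ran from -2.38 to -0.73 and lost its call in 7, and Kcnc2 ran from 1.70 to 3.37 and lost it in 4. Without knockout 1, 0 genes differed by edgeR (830 at an unadjusted p under 0.05), and in nuclei of 5000 to 20000 UMIs 0 by edgeR (557 at an unadjusted p under 0.05); DESeq2 on all libraries called 2. Without flox control 2, flox control 3, knockout 2 and knockout 3 in turn, 3, 1, 1 and 6 genes differed.

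**Figure D5:**
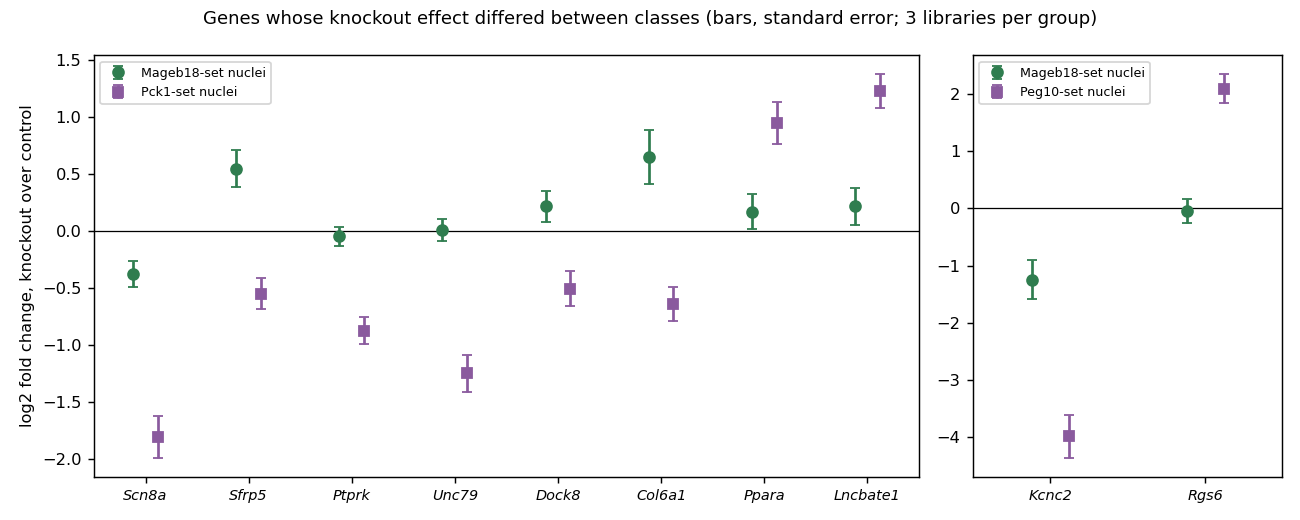
Log2 fold change, knockout over control, in Mageb18-set nuclei (green circles) and in Pck1-set or Peg10-set nuclei (purple squares) for the named genes whose effect differed; bars are standard errors from edgeR, with 3 libraries per group. Scn8a is at -0.38 against -1.80 and Lncbate1 at 0.22 against 1.23.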

How the data were processed

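The deposited files are count matrices of UMIs per gene and barcode, 1 per library, made by the authors with Cell Ranger 7.1.0 per the file headers, on mm10 per the submitters' processing notes, which also name GRCh38. Whether intronic reads were counted is not given in the sources used here. Raw counts were summed per library and class of nuclei, so the library was the replicate. Library totals ran from 38857282 to 55342903 UMIs. The labels give 3 mice per group, and p-values measure the spread between these libraries. No column of per-sample values was left unused (0).

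Tests used edgeR 4.0.16 (quasi-likelihood, TMM factors, filterByExpr, Benjamini-Hochberg adjustment over all genes tested, threshold 0.05) in R 4.3.3, with DESeq2 1.42.0 as an alternative. The difference of knockout effects between classes was an interaction term with each library as a block. Shares were compared with exact two-sided permutation tests (scipy 1.17.1, Python 3.11.15). Scripts were tested on simulated data. Doublets were kept, and as an alternative the highest Scrublet scores (scanpy 1.11.5) at 0.8% per 1000 barcodes were removed. Gene positions came from GENCODE M21 (mm10) and promoter windows from RefSeq GRCm38.p6.

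The nuclei, the gene sets and the lists were chosen with earlier results of these data known. Named genes were, in each direction, the 8 of lowest p with at least 20 CPM in a group and no overlap between groups where fewer than 5 passed, up to 8 of lowest p for class differences, and the 15 highest and 10 lowest within-library ratios. In each, names of the form Gm with digits or ending in Rik were passed over, and genes of the rule were passed over between groups and classes. List genes outside that rule were picked after their values were seen. Alternatives were another scaling, DESeq2, no filter on low counts, stricter or thinned choices of nuclei, a replicate block and leaving out each library; a lead of at least 2 genes, the Pck1 set without Cfd, the Mageb18 set alone, nuclei of at least 5000 UMIs and the gene span correction were added after the data were seen.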

Additional observations from a re-analysis of the deposited data

Results flagged for a closer look

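The knockout effect of 10 genes is listed because an interaction test found it to differ between Mageb18-set nuclei and another class (edgeR, adjusted p under 0.05, 3 libraries per group). Against Pck1-set nuclei, the log2 fold change in Mageb18-set nuclei was more positive by 1.41 for Scn8a, by 1.11 for Sfrp5, by 0.82 for Ptprk, by 1.23 for Unc79, by 0.71 for Dock8 and by 1.27 for Col6a1. It differed by -0.82 for Ppara and by -1.03 for Lncbate1. Against Peg10-set nuclei the difference was 2.93 for Kcnc2 and -2.03 for Rgs6. These genes are those of lowest p, and the same libraries gave both classes. By the median ratio over all libraries, those listed against Pck1-set nuclei were higher in Mageb18-set nuclei where the difference was positive and lower where negative. That median includes the knockouts, so the difference itself moves it. In control libraries 1, 2 and 3, Sfrp5 was lower in Mageb18-set nuclei (43.4, 31.2 and 30.4 against 52.8, 46.1 and 39.5 CPM). So was Col6a1 (24.0, 20.8 and 21.8 against 27.7, 22.2 and 24.2 CPM). Lncbate1 was higher there in controls 1 and 2 (29.5 and 38.6 against 27.0 and 37.4 CPM). The part of these levels was not tested.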

How the results depend on the processing

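The lower share of Mageb18-set nuclei in the knockouts kept its direction in every alternative run, with a difference of -15.6 to -13.6 percentage points when 1 library was left out. Genes that rose and fell between the groups in Mageb18-set nuclei numbered 0 and 0 by edgeR (1098 at an unadjusted p under 0.05). They numbered 21 and 39 with DESeq2, 3 and 5 with no filter on low counts and 2 and 0 in nuclei of 5000 to 20000 UMIs, and 0 to 0 in each direction with 1 library left out. Genes whose effect differed from Pck1-set nuclei numbered 76, 536 with no filter, 27 in nuclei of 5000 to 20000 UMIs and 2 to 175 with 1 library left out. Against Peg10-set nuclei they numbered 2, 45 with no filter, 4 with nuclei thinned to 3000 UMIs, 0 in nuclei of 5000 to 20000 UMIs (edgeR, 557 at an unadjusted p under 0.05; DESeq2 on all nuclei 2) and 0 to 6 with 1 library left out. The unfiltered fit tested 23050 genes in place of 13121 between groups; the cause of the other shifts was not tested. Of 287 values of single genes between groups, 24 passed the threshold where the reported fit did not; of 140 for class differences, 28 no longer passed; 0 reversed.

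With the replicate number as a block, 0 genes rose and 1 fell, Gnal (adjusted p = 0.0471). Deviations of same-numbered libraries correlated at 0.148, 0.203 and 0.0485, so the numbers were not taken as pairs, although every library correlated best with its own number. The interaction fits already hold each library as a block. Knockout sums of 2352224 to 3090325 UMIs in the class limit what can be seen of low genes.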
